A study of Mus musculus with 6 samples.

Results

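The genes described here are 33 mouse genes from families of enzymes that add acetyl groups to histones or take them off, and of proteins that read the mark. They were chosen as the rows of the gene-level count table whose symbol is on a list of 18 deacetylases and sirtuins, 13 acetyltransferases and coactivators with that activity, and 2 BET readers. Hdac6, Hdac10 and the mitochondrial sirtuins of that list are given below with other targets or sites. All 33 genes were among the 45706 genes of the table, and all 33 passed the low-count filter that left 12224 genes for testing. RNA was sequenced from primary mouse bone marrow-derived macrophages, the precursors from which osteoclasts, the bone-resorbing cells, can be grown. The 3 groups hold 2 libraries each: untreated cells at day 0, cells cultured for 1 day with RANKL (the cytokine that drives precursors towards osteoclasts), and cells cultured for 1 day with both RANKL and sodium acetate. The sources used here give no mouse strain, age, genotype or dose. No day 1 group lacks RANKL, so RANKL and the day in culture cannot be told apart, and no group received another sodium salt.

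Acetylation of lysines on histone tails loosens their hold on DNA and creates docking sites for proteins with a bromodomain. Acetyltransferases place the mark with acetyl-CoA as donor, zinc-dependent deacetylases remove it, and sirtuins remove acetyl and related groups with NAD as a cosubstrate. Class IIa deacetylases have little activity of their own on acetyl-lysine and act largely as repressors bound to MEF2 transcription factors. BET proteins bind acetylated histones and help RNA polymerase to transcribe. In osteoclast precursors, deacetylases and BET proteins have been studied as regulators of the response to RANKL.

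Libraries held 9997515 to 11254944 expected counts and 15196 to 15710 genes with a count. In the libraries as labelled, the summed level of 15 macrophage identity genes was 25620 to 26040 CPM (counts relative to the TMM-scaled library total) at day 0, 6415 to 6476 with RANKL and 13820 to 13990 with RANKL and acetate. That of 12 osteoclast genes was 203.6 to 215.6, 3337 to 3352 and 992.7 to 1035 CPM in the same order, with Calcr at 0 throughout. All 15 macrophage genes were lower with RANKL than at day 0 and higher with acetate than with RANKL alone. In bulk RNA, fewer cells of a type and less RNA per cell cannot be told apart. Whether the libraries of each group were separate cultures or animals is not stated, so a p-value here reflects the spread between the libraries alone, and that spread may be technical.

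Per unit length the 33 genes had nearly the same summed level in the 3 groups. It was 1020 ± 2.71 TPM (length-scaled transcript abundance; SD, n = 2 per group) at day 0, 1004 ± 4.88 with RANKL and 1013 ± 10.1 with RANKL and acetate. The parts of that sum differed more. The 18 deacetylases and sirtuins held 497.6 ± 1.91, 451.6 ± 9.57 and 472 ± 8.92 TPM, and the 13 acetyltransferases 406.4 ± 6.90, 378 ± 6.27 and 385.9 ± 7.35 TPM. Both readers together held 116.2 ± 2.28, 174.8 ± 1.57 and 155.4 ± 8.54 TPM. Hat1, a largely cytoplasmic enzyme that acetylates newly made histone H4, led at day 0 with 104.3 ± 1.97 TPM, beside the reader Brd2 with 101.8 ± 0.559. With RANKL the order turned, to 151.7 ± 4.77 TPM for Brd2 and 129.9 ± 2.07 for Hat1. With acetate the levels were 140.7 ± 3.63 TPM for Hat1 and 136.4 ± 6.56 for Brd2, which did not differ beyond their spread. Hdac9 moved furthest down the order, from 16th at day 0 to 32nd with RANKL, with and without acetate. Hdac11, the class IV deacetylase, was last in all 3 groups.

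**Figure D1:**
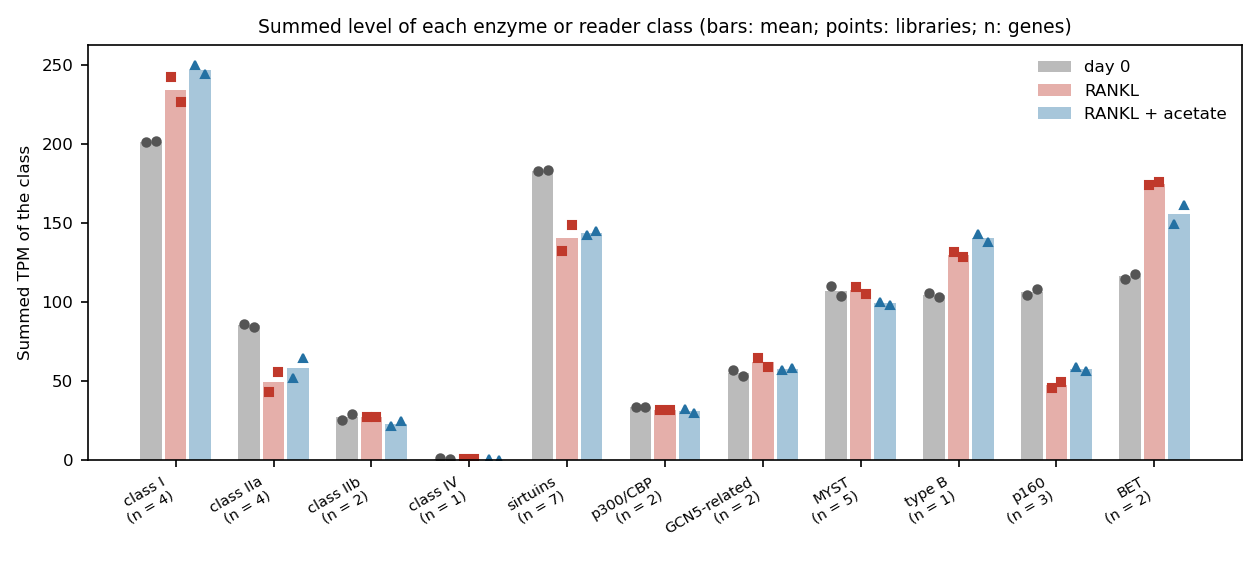
Summed TPM (vertical axis) of the 11 enzyme and reader classes in the 3 groups; bars are group means and points the 2 libraries. The p160 coactivators summed to 106.2 TPM at day 0, 47.3 with RANKL and 57.7 with acetate, and the BET readers to 116.2, 174.8 and 155.4.

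With RANKL, 19 of the 33 genes were called against day 0, 7 higher and 12 lower, where 66.3% of all tested genes were called, 32.8% higher and 33.5% lower. A gene is called when its p from edgeR's quasi-likelihood test, adjusted by Benjamini-Hochberg over all 12224 genes, is under 0.05. The members' share was 57.6%, and whether it differs from that background was not tested. Their median log2 fold change was -0.03 and their median size of change 0.32, against 0.01 and 0.46 over all genes. Members that were called with a change of at least 2-fold numbered 4, all lower (Hdac9, Hdac7, Sirt2 and Ncoa3), where 21.8% of all genes were called at that size. At a log2 fold change of at least 0.58 in size 8 members were called, 2 higher and 6 lower, beside 38.1% of all genes.

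With acetate added to RANKL, 9 of the 33 genes were called against RANKL alone, where 30.4% of all genes were called, 16.7% higher and 13.7% lower. Hdac1, Hdac9, Sirt3 and Ncoa3 were higher, and Sirt1, Crebbp, Kat5, Brd2 and Brd3 were lower. The members' share, 27.3%, is close to the background, and their median size of change, 0.17, is close to the 0.18 of all genes. At a log2 fold change of at least 0.58 in size 2 members were called, Hdac9 and Sirt3, beside 10.6% of all genes, and only Hdac9 reached 2-fold, beside 5.19%. Of these 9 calls, those of Hdac1, Hdac9 and Ncoa3 held in all 17 other ways of fitting, scaling or leaving out a library. Against day 0, the acetate libraries had 9 members higher and 9 lower, a share of 54.5% where 60.7% of all genes were called, 30.3% higher and 30.4% lower. At a log2 fold change of at least 0.58 in size 9 of them were called, beside 31.3% of all genes, and 4 reached 2-fold, beside 16.6%. The comparisons share libraries, so their values are set side by side without a test of likeness.

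**Figure D2:**
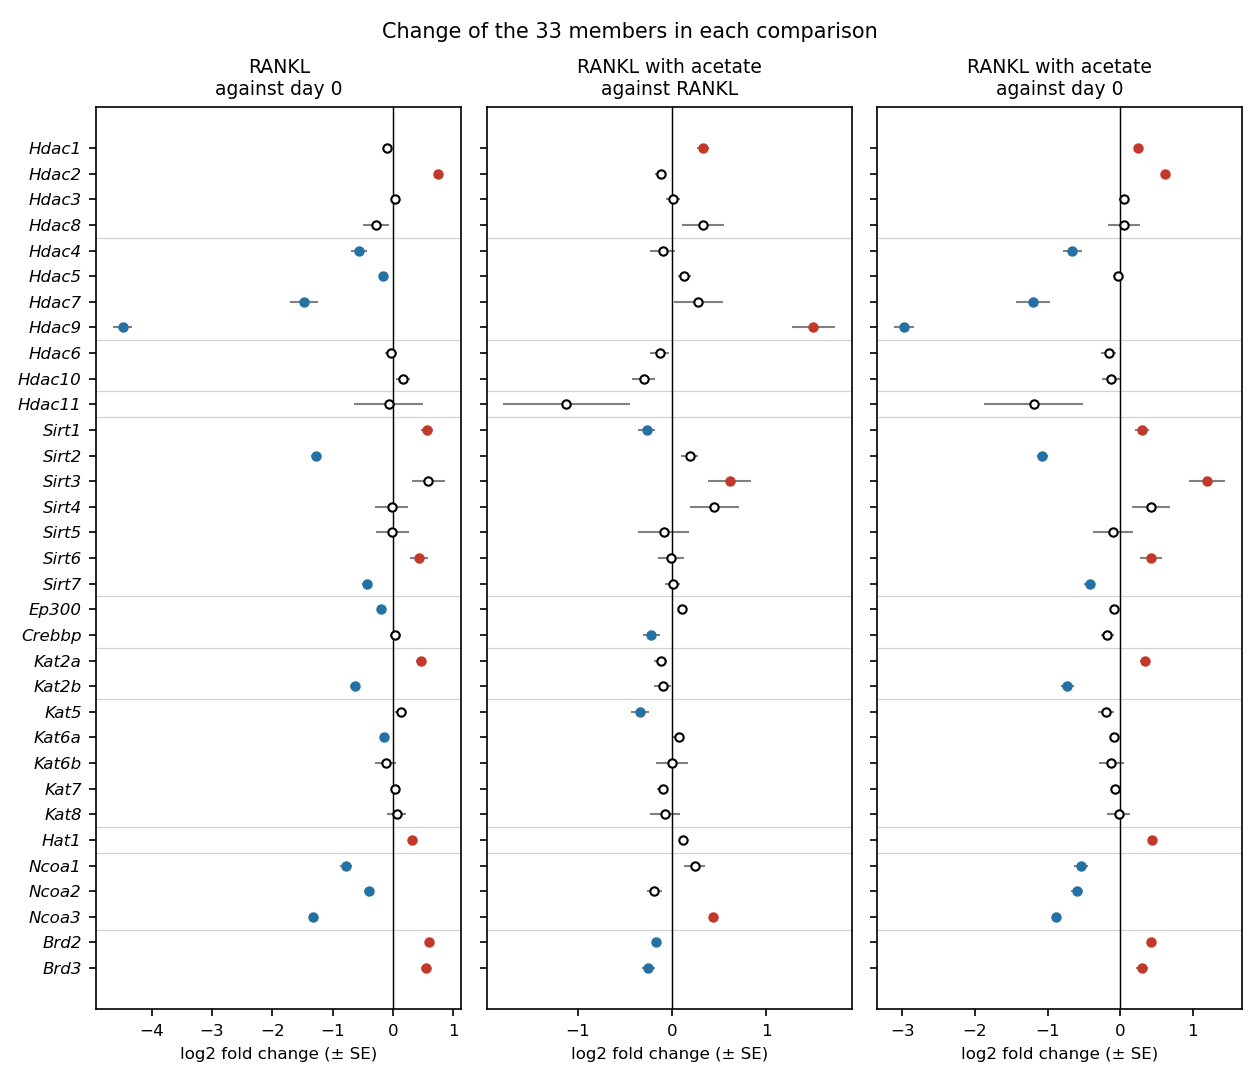
Log2 fold change (horizontal axis, bars are SE) of each of the 33 genes in the 3 comparisons; filled points were called (red higher, blue lower), open points were not, and the panels differ in scale. Hdac9 lies furthest left with RANKL, at -4.48, and furthest right with acetate against RANKL, at 1.50.

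Among the erasers, all 4 class IIa deacetylases were called lower by counts with RANKL than at day 0, where 33.5% of all genes were, and Hdac9 fell most of the 33 genes. Of these calls, that of Hdac4 turned sign per unit length, that of Hdac7 was lost there, and that of Hdac5 was lost in 7 of 17 alternatives. Hdac9 encodes a class IIa deacetylase that represses MEF2 factors, and the gene lies on chromosome 12, minus strand, at 34047580 to 34917095 (GRCm38). It stood at 49.6 and 56.4 CPM at day 0 (replicates 1 and 2, the order used throughout), 2.23 and 2.51 with RANKL, while the acetate libraries held 6.79 and 6.64. The 3 groups did not overlap, with day 0 far above and acetate above RANKL alone. The fall with RANKL was 22.3-fold, a log2 fold change of -4.48 ± 0.16 (SE; edgeR adjusted p = 8.44e-23). With acetate the gene was 2.83-fold higher than with RANKL alone (log2 1.50 ± 0.23; edgeR adjusted p = 2.4e-06; 0.84 on log2(TPM + 1), also called) and 7.88-fold lower than at day 0 (log2 -2.98 ± 0.14; edgeR adjusted p = 1.29e-19). These calls rest on 501 and 539 counts at day 0, 26 and 28 with RANKL, and 70 and 68 with acetate.

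Summed markers of other cell types moved in both directions. Beside the macrophage identity genes given above, the summed level of 6 B cell markers was 21.6 to 28.7 CPM at day 0, 2.83 to 3.32 with RANKL and 4.07 to 4.88 with acetate. Nearly all of it was Ighm, with 202 and 263 counts at day 0, while Cd79a, Cd79b, Ms4a1 and Pax5 had 0 to 12 counts per library. The sum of 5 endothelial markers was 28.3 to 28.6, 10.5 to 16.0 and 21.8 to 26.7 CPM, mostly Kdr, with Pecam1 at 5 to 14 counts and Tek at 0 to 3. The sum of 6 neutrophil markers was 148.8 to 154.7, 117.8 to 118.1 and 117.9 to 121.8 CPM. By contrast, 6 stromal markers summed to 5.55 to 5.76, 13.1 to 13.4 and 9.79 to 10.8 CPM, with Dcn at 0 counts in both day 0 libraries and 83 and 85 with RANKL. The sum of 5 dendritic cell markers was 3.37 to 3.66, 6.46 to 7.63 and 6.45 to 6.69 CPM. Of 7 T and NK markers, 5 had 0 counts in every library, and 5 erythroid markers summed to at most 0.594 CPM. What part any of these cells has in the Hdac9 values was not tested.

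The deposited transcript table holds 1 transcript of Hdac9, Hdac9-201 of 4422 bases (chr12:34371497-34528874, minus strand), where GENCODE M21 lists 10, so reads of other forms are not resolved. The promoter at the start of that transcript is shown because Hdac9 carries the largest change here, together with those of Sirt2 and of the Hdac7 transcript with the most counts at day 0, which also fell at least 2-fold. Each runs from 250 bases before to 50 after a transcription start and comes from RefSeq (GRCm38.p6). Capitals mark a match to a motif searched on both strands: TGANTCA for AP-1, GAGGAAG for PU.1, TGGAAA for the NFAT core, GAAA, 2 bases of any kind and GAAA for interferon-regulatory factors and CACGTG for the E-box. The windows are chr12:34528840-34529139 (minus strand) for Hdac9, chr7:28766502-28766801 (plus) for Sirt2 and chr15:97831718-97832017 (minus) for Hdac7.
Hdac9: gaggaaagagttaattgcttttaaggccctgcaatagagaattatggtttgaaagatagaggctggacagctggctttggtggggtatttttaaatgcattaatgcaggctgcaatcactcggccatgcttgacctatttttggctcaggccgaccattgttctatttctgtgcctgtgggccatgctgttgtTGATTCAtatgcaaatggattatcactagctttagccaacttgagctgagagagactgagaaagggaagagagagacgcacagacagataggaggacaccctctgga
Sirt2: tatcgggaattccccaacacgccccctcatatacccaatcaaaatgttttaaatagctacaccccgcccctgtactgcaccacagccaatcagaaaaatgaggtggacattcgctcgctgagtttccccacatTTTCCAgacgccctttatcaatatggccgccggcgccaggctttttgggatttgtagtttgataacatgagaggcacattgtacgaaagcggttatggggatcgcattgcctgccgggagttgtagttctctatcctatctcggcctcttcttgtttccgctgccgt
Hdac7: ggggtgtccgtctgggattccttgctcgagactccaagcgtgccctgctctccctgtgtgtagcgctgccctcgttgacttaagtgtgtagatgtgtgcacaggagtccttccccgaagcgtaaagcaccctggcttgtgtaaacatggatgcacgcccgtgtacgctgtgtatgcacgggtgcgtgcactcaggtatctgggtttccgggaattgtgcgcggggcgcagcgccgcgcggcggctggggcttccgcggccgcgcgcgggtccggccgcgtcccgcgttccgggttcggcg
The Hdac9 window holds 1 AP-1 match, 57 bases before the start, and the Sirt2 window 1 NFAT core match on the other strand, 117 bases before the start. None of the 5 motifs is in the Hdac7 window shown. A second Hdac9 window, chr12:34917046-34917345, holds 1 NFAT core match, and of the other Hdac7 windows 1 holds a PU.1 match and 1 an AP-1 match. Of all 32851 promoters in the table, 7.81% hold the AP-1 motif, 13.6% the PU.1 motif, 21.4% the NFAT core, 3.44% the interferon-regulatory factor motif and 7.15% the E-box. The 27 members with an entry have 39 promoters in the table, of which 10.3%, 12.8%, 17.9%, 2.56% and 10.3% hold them in that order (4, 5, 7, 1 and 4 promoters). A match describes letters in the window and is not a binding site shown by these data.

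Hdac7, a class IIa deacetylase known for roles in lymphocytes and blood vessels, stood at 9.31 and 11.9 CPM at day 0, 3.77 and 3.86 with RANKL, and 3.59 and 5.67 with acetate. Both groups of day 1 lay below day 0 and overlapped each other. The fall was 2.77-fold with RANKL (log2 -1.47 ± 0.23; edgeR adjusted p = 1.18e-06) and 2.29-fold with acetate against day 0 (log2 -1.20 ± 0.23; edgeR adjusted p = 3.15e-05). On log2(TPM + 0.1) neither difference was called, at -1.20 and -0.86. The shares of its transcripts varied widely between replicates: Hdac7-202, of 4223 bases, held 56.1% and 59.7% of the gene's TPM at day 0, 75.2% and 17.4% with RANKL, and 13.3% and 33.5% with acetate.

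Hdac4, which in skeletal tissue restrains cartilage maturation, stood at 26.8 and 32.5 CPM at day 0, 19.4 and 20.9 with RANKL, and 16.4 and 21.1 with acetate. Day 0 lay above both other groups, which overlapped. By counts it was lower with RANKL (log2 -0.56 ± 0.13; edgeR adjusted p = 0.000219) and with acetate against day 0 (log2 -0.66 ± 0.13; edgeR adjusted p = 3.94e-05). Per unit length neither fall was called. The RANKL difference turned sign, to 0.12 on log2(TPM + 0.1) and 0.23 on log2(FPKM + 0.1), and acetate against day 0 was -0.04 and 0.05 on those scales. The 8100-base transcript Hdac4-202 held 52.0% and 63.5% of the gene's TPM at day 0, 40.7% and 19.6% with RANKL, and 25.7% and 38.1% with acetate. Exons of Hdac4 overlap the antisense gene Gm26720 over 22.4% of their bases, and no source used here says whether counting used strand. Hdac5, the fourth class IIa gene, which also represses MEF2 factors, ranged from 65.9 to 77.4 CPM over the 6 libraries. It was lower with RANKL by log2 -0.16 ± 0.07 (edgeR adjusted p = 0.0353), a call lost with DESeq2, with upper-quartile factors, with no low-count filter and with only those groups fitted. Leaving out day 0 replicate 1 (-0.19), day 0 replicate 2 (-0.13) or RANKL replicate 1 (-0.12) also ended it. Per unit length the fall was larger and stayed called, at -0.56 on log2(TPM + 0.1). Its transcripts under 1000 bases held 31.1 and 19.4 TPM at day 0 and 9.52 and 12.7 with RANKL. These rest on 73.3 and 37.7 expected counts at day 0 and 33.9 and 40.9 with RANKL. The longer transcripts held 26.7 and 32.5 TPM at day 0 and 24.9 and 27.3 with RANKL, a smaller fall.

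Class I deacetylases, of which Hdac1, Hdac2 and Hdac3 are catalytic subunits of nuclear corepressor complexes, did not move as one. Hdac2 rose, Hdac1 was higher with acetate, and Hdac3 and Hdac8 were not called in any comparison. Hdac2 stood at 73.2 and 71.5 CPM at day 0, 126.8 and 115.6 with RANKL, and 110.4 and 112.7 with acetate. Both day 1 groups lay above day 0. The rise was 1.68-fold with RANKL (log2 0.75 ± 0.06; edgeR adjusted p = 8.79e-13), the largest increase among the 33 genes in that comparison, and log2 0.62 ± 0.06 with acetate against day 0 (edgeR adjusted p = 1.44e-10). Acetate against RANKL gave log2 -0.12 ± 0.06, not called (edgeR adjusted p = 0.118), though called at -0.19 without RANKL replicate 2.

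Hdac1, the close paralog of Hdac2, stood at 114.7 and 112.3 CPM at day 0, 111.1 and 102.4 with RANKL, and 142.1 and 127.2 with acetate. The acetate libraries lay above all others. The gene was 1.26-fold higher with acetate than with RANKL alone (log2 0.33 ± 0.06; edgeR adjusted p = 2.69e-05) and higher than at day 0 by log2 0.25 ± 0.06 (edgeR adjusted p = 0.000556), a call lost without acetate replicate 1, at 0.17. Its expected counts are not whole numbers, as RSEM gives where reads match more than 1 sequence, so its level is uncertain. Hdac3, a catalytic subunit of corepressor complexes, stood at 60.1 and 61.9 CPM at day 0, 61.6 and 64.0 with RANKL, and 61.2 and 65.1 with acetate. All 3 groups overlapped, and its log2 differences were between 0.01 and 0.05. Hdac8, the fourth class I enzyme, ranged from 5.02 to 7.72 CPM. The class IIb enzymes were not called either: Hdac6, a cytoplasmic deacetylase of tubulin, ranged from 26.2 to 31.0 CPM, and Hdac10, a polyamine deacetylase, from 17.0 to 24.3 CPM. Acetate against RANKL for Hdac10 was called at -0.44 only without acetate replicate 2. Hdac11 had 2 to 12 counts per library, too few to show a difference by counts, and was called lower with acetate against day 0 on the TPM and FPKM scales, at -1.72 on log2(TPM + 0.1).

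Of the 7 sirtuins, Sirt2 and Sirt7 fell with RANKL, Sirt1 and Sirt6 rose, and Sirt3 was highest with acetate. Sirt2, a mainly cytoplasmic deacetylase that also acts on histone H4, lies on chromosome 7, plus strand, at 28766735 to 28788661 (GRCm38). It stood at 92.5 and 86.2 CPM at day 0, 35.0 and 39.5 with RANKL, and 42.7 and 42.4 with acetate. Day 0 lay above both day 1 groups, and acetate above RANKL. The fall was 2.40-fold with RANKL (log2 -1.27 ± 0.08; edgeR adjusted p = 2.87e-16) and 2.10-fold with acetate against day 0 (log2 -1.07 ± 0.08; edgeR adjusted p = 3.26e-14). The acetate difference of 0.19 ± 0.09 was not called (edgeR adjusted p = 0.0857).

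Sirt3, the main mitochondrial deacetylase, stood at 3.27 and 3.87 CPM at day 0, 4.29 and 6.46 with RANKL, and 7.27 and 9.08 with acetate. The groups did not overlap, but the level is low and RANKL replicates differed. Acetate was higher than day 0 by 2.29-fold (log2 1.20 ± 0.25; edgeR adjusted p = 0.000112). It was higher than RANKL alone by log2 0.61 ± 0.23 (edgeR adjusted p = 0.0415), a call lost with DESeq2 and on the TPM and FPKM scales, without RANKL replicate 1 (0.34) and without acetate replicate 2 (0.44). Without RANKL replicate 2 it was 0.93, still called. RANKL against day 0 gave 0.59 ± 0.27, not called (edgeR adjusted p = 0.0512) but called in 6 of the alternatives, at 0.86 without RANKL replicate 1. Exons of Sirt3 overlap the neighbouring gene Ric8a over 7.0% of their bases.

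Sirt1, a nuclear deacetylase of histones and transcription factors, stood at a mean of 28.8 CPM at day 0, 42.8 with RANKL and 35.6 with acetate. It rose with RANKL by log2 0.57 ± 0.10 (edgeR adjusted p = 3.18e-06). With acetate it was lower than with RANKL alone, by log2 -0.27 ± 0.09 (edgeR adjusted p = 0.0244). That call was lost with DESeq2, on the TPM and FPKM scales, without RANKL replicate 1 (-0.23), RANKL replicate 2 (-0.31) or acetate replicate 2 (-0.21). Against day 0 acetate was higher by 0.30 ± 0.10 (edgeR adjusted p = 0.009), lost in the same scales and tool and without day 0 replicate 1 (0.23) or acetate replicate 1 (0.24). Sirt6, a chromatin deacetylase that acts on histone H3, was higher in both day 1 groups than at day 0, by 0.43 ± 0.15 with RANKL (edgeR adjusted p = 0.0106) and 0.42 ± 0.15 with acetate (edgeR adjusted p = 0.0152). Both calls were lost with DESeq2, on the TPM scale and without day 0 replicate 1 (0.38 and 0.37), the second also without acetate replicate 1 (0.35). Sirt7, which removes acetyl groups from histone H3 and sits largely in the nucleolus, was lower than at day 0 in both day 1 groups, by log2 -0.43 ± 0.08 with RANKL (edgeR adjusted p = 1.4e-05) and -0.42 ± 0.08 with acetate (edgeR adjusted p = 2.86e-05). On TPM neither was called, and on FPKM the RANKL difference was 0.02. The 427-base transcript Sirt7-202 held 0% of the gene's TPM in either day 0 library, 22.6% and 24.2% after RANKL, and 8.7% and 24.0% in the acetate libraries. These shares rest on 17.1 and 18.6 expected counts with RANKL and 5.2 and 16.2 with acetate. The whole gene had 437 to 583 counts per library. Sirt4 and Sirt5, mitochondrial sirtuins at 3.34 to 6.50 and 3.30 to 4.69 CPM, were not called.

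**Figure D3:**
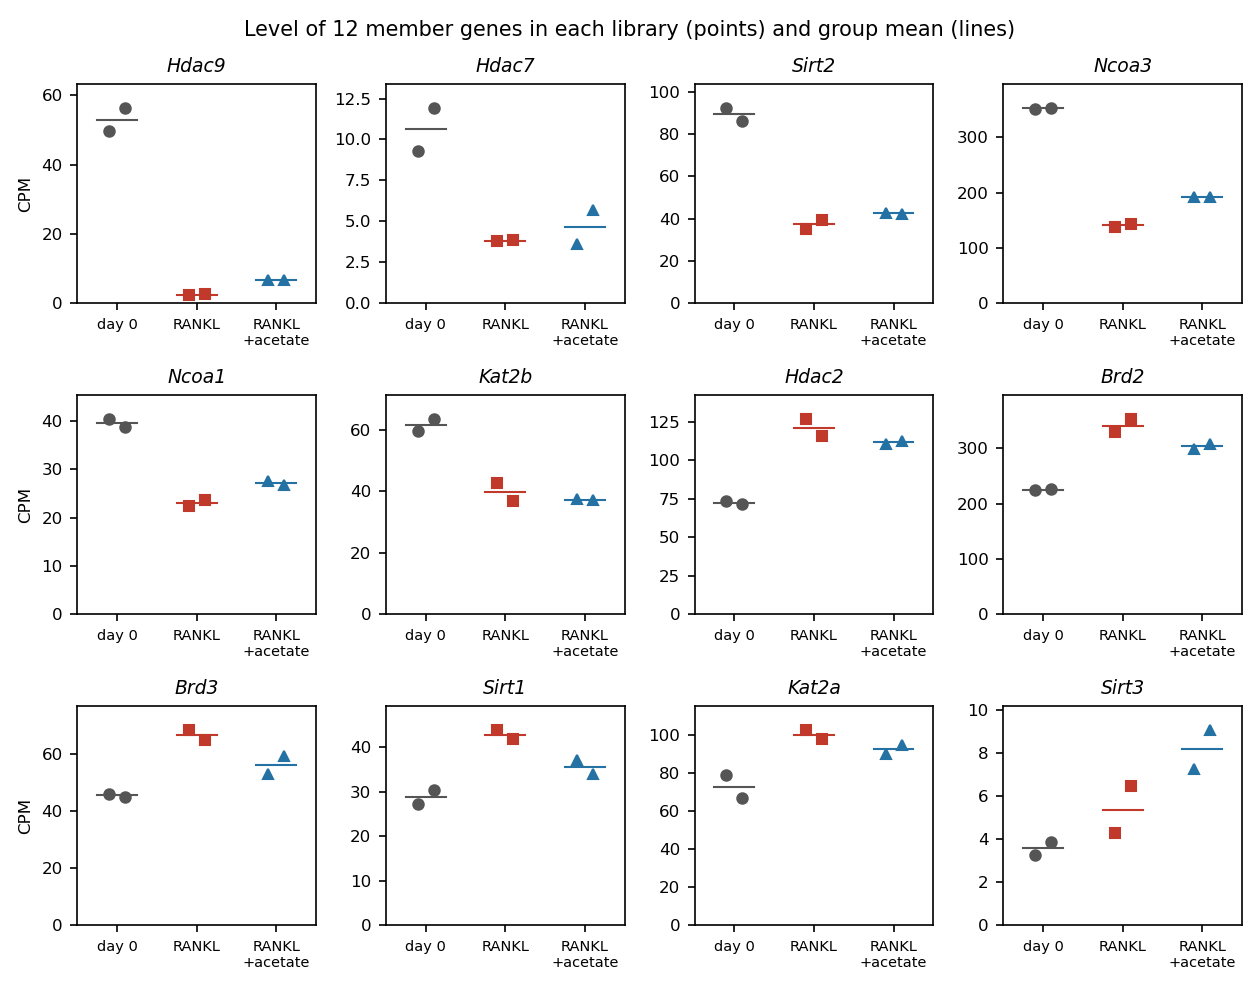
CPM (vertical axis, each panel from 0) of 12 of the genes in each library (points) with the group mean (lines) for day 0, RANKL, and RANKL with acetate. Hdac9, Hdac7, Sirt2 and Ncoa3 stand highest at day 0, and Hdac2 and Brd2 stand lowest there.

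Among the writers, all 3 p160 coactivators were called lower with RANKL than at day 0, where 33.5% of all genes were. These proteins bind nuclear receptors, recruit p300 and CBP, and have weak acetyltransferase activity of their own. Ncoa3 (chromosome 2, plus strand, 165992636 to 166073242, GRCm38) stood at 351.4 and 353.2 CPM at day 0, 138.0 and 143.5 with RANKL, and 192.0 and 191.1 with acetate. The 3 groups were apart, with little spread inside each. The fall with RANKL was 2.50-fold (log2 -1.32 ± 0.04; edgeR adjusted p = 1.01e-23), the smallest adjusted p among the 33 genes in that comparison. With acetate it was 1.36-fold higher than with RANKL alone (log2 0.44 ± 0.05; edgeR adjusted p = 1.19e-09) and 1.84-fold lower than at day 0 (log2 -0.88 ± 0.04; edgeR adjusted p = 1.13e-18). By TPM it went from 4th among the members at day 0 to 11th with RANKL and 10th with acetate.

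Ncoa1 stood at 40.5 and 38.7 CPM at day 0, 22.4 and 23.7 with RANKL, and 27.6 and 26.8 with acetate. Day 0 was highest and the groups did not overlap. It fell with RANKL (log2 -0.78 ± 0.10; edgeR adjusted p = 2.68e-08) and was lower with acetate than at day 0 (-0.54 ± 0.10; edgeR adjusted p = 1.82e-05). The acetate difference from RANKL, 0.24 ± 0.11, was not called (edgeR adjusted p = 0.0866). Ncoa2 stood at 65.6 and 61.1 CPM at day 0, 47.9 and 48.3 with RANKL, and 44.8 and 39.3 with acetate. Its order differed from that of Ncoa1 and Ncoa3, with the acetate libraries lowest. The log2 differences from day 0 were -0.40 ± 0.08 with RANKL (edgeR adjusted p = 4.16e-05), lost on FPKM, and -0.59 ± 0.08 with acetate (edgeR adjusted p = 1.24e-07). Between the day 1 groups it differed by -0.19 ± 0.08, not called (edgeR adjusted p = 0.0778), though called at -0.29 without acetate replicate 1.

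The GCN5-related pair moved in opposite directions with RANKL. Kat2b, or PCAF, stood at 59.6 and 63.5 CPM at day 0, 42.8 and 36.7 with RANKL, and 37.3 and 37.1 with acetate. Day 0 lay above both other groups, which overlapped. The log2 fold changes were -0.63 ± 0.08 with RANKL (edgeR adjusted p = 5.2e-08) and -0.73 ± 0.09 with acetate against day 0 (edgeR adjusted p = 6.15e-09). Kat2a, or GCN5, the catalytic subunit of the SAGA and ATAC complexes, had means of 72.7, 100.1 and 92.3 CPM in the 3 groups. It rose by 0.46 ± 0.07 with RANKL (edgeR adjusted p = 4.38e-07) and was 0.34 ± 0.07 higher with acetate than at day 0 (edgeR adjusted p = 7.83e-05). By TPM the pair's sum was 55.1 ± 3.02, 61.9 ± 3.92 and 57.4 ± 0.813.

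The paralogous coactivators p300 and CBP, which acetylate histone H3 at enhancers, changed little. Ep300 stood at 143.9 and 147.3 CPM at day 0, 129.5 and 125.3 with RANKL, and 141.3 and 133.8 with acetate. RANKL was lowest in both libraries, by log2 -0.19 ± 0.05 against day 0 (edgeR adjusted p = 0.00166), a call lost on TPM and FPKM. Crebbp stood at 42.0 and 42.9 CPM at day 0, 42.4 and 45.0 with RANKL, and 37.6 and 37.3 with acetate. The acetate libraries were lowest, by log2 -0.22 ± 0.09 against RANKL (edgeR adjusted p = 0.0492), a call that was lost in 13 of 17 alternatives, among them each of the 6 libraries left out (-0.27 to -0.18).

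Hat1 stood at 103.3 and 99.4 CPM at day 0, 126.9 and 126.0 with RANKL, and 140.9 and 133.6 with acetate. The groups did not overlap, day 0 being lowest. Its rise was 0.32 ± 0.06 on the log2 scale with RANKL (edgeR adjusted p = 5.69e-06) and 0.44 ± 0.06 with acetate against day 0 (edgeR adjusted p = 2.25e-08). Acetate against RANKL was not called, at 0.12 ± 0.05 (edgeR adjusted p = 0.0912).

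Of the 5 MYST acetyltransferases, Kat6b, Kat7 and Kat8 were called in no comparison. Kat7, the HBO1 enzyme of histone H3 and H4, ranged from 92.7 to 105.9 CPM, Kat8, the MOF enzyme of H4 lysine 16, from 11.4 to 15.6, and Kat6b, the paralog of Kat6a, from 10.4 to 14.2. Kat6a, a writer of histone H3 needed in blood stem cells, had means of 115.6, 104.3 and 109.6 CPM. It was lower with RANKL by log2 -0.15 ± 0.06 (edgeR adjusted p = 0.0184), a call lost with DESeq2, upper-quartile factors, TPM and FPKM, and without day 0 replicate 1 (-0.14), day 0 replicate 2 (-0.15) or RANKL replicate 2 (-0.13). Kat5, the TIP60 enzyme of the NuA4 complex, had means of 29.9, 32.9 and 26.0 CPM. It was lower with acetate than with RANKL by log2 -0.34 ± 0.10 (edgeR adjusted p = 0.0105), lost with DESeq2 and without RANKL replicate 2 (-0.26) or acetate replicate 2 (-0.33). Exons of Kat5 overlap those of Rnaseh2c over 12.1% of their bases.

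Both readers were called higher with RANKL, where 32.8% of all genes were, and higher with acetate than at day 0, where 30.3% were. They were also called lower with acetate than with RANKL alone, where 13.7% of all genes were. The calls of acetate against RANKL were lost in several alternatives, named below. Brd2 stood at 225.2 and 225.8 CPM at day 0, 329.2 and 353.5 with RANKL, and 299.7 and 308.5 with acetate. The 3 groups did not overlap. The rise with RANKL was 1.51-fold (log2 0.60 ± 0.04; edgeR adjusted p = 2.6e-14). Acetate against RANKL was -0.17 ± 0.04 (edgeR adjusted p = 0.00228), lost on TPM and FPKM and without RANKL replicate 2 (-0.12) or acetate replicate 1 (-0.15), and acetate against day 0 was 0.43 ± 0.04 (edgeR adjusted p = 1.68e-10). Exons of Brd2 overlap an antisense gene over 5.2% of their bases. Brd3, its paralog, had means of 45.5, 66.8 and 56.1 CPM, and rose with RANKL by log2 0.55 ± 0.08 (edgeR adjusted p = 1.28e-07). With acetate it was lower than with RANKL by log2 -0.25 ± 0.07 (edgeR adjusted p = 0.00907), lost with DESeq2, on TPM and FPKM, and without RANKL replicate 1 (-0.21) or acetate replicate 1 (-0.17). Against day 0 acetate was higher by 0.30 ± 0.08 (edgeR adjusted p = 0.00153), lost on TPM and without acetate replicate 2 (0.22), and at 0.49 on FPKM, still called.

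Genes that work with these enzymes were described from lists of their partners. The lists were chosen with earlier results of these data known, so their shares beside those of all genes are description and not a test. Of 18 tested class IIa partners and kinases, 7 were higher and 10 lower with RANKL than at day 0, with a median of -0.32 against 0.01 over all genes, and 94.4% were called where 66.3% of all genes were. Of the 4 genes of MEF2 factors, which class IIa deacetylases bind, Mef2a and Mef2c fell, Mef2d rose (log2 0.27 ± 0.07; edgeR adjusted p = 0.000637) and Mef2b had 0 counts throughout. Mef2a went from 446.5 ± 8.82 to 94.5 ± 3.56 CPM (log2 -2.24 ± 0.05; edgeR adjusted p = 1.11e-29) and Mef2c from 96.7 ± 5.16 to 15.8 ± 1.61 (log2 -2.61 ± 0.09; edgeR adjusted p = 5.54e-23). Camk1, a calcium-dependent kinase of class IIa deacetylases, went from 214.6 ± 1.87 to 38.8 ± 2.54 CPM (log2 -2.46 ± 0.06; edgeR adjusted p = 3.82e-27). With acetate against RANKL, 6 of the 18 were higher and 4 lower, with a median of 0.01, and 55.6% were called where 30.4% of all genes were. Mef2a was higher by log2 0.79 ± 0.05 (edgeR adjusted p = 5.6e-15), Mef2c by 0.87 ± 0.11 (edgeR adjusted p = 7.72e-08) and the kinase gene Prkd3 by 0.63 ± 0.07 (edgeR adjusted p = 2.39e-09). With acetate against day 0, 6 were higher and 9 lower, with a median of -0.13, and 83.3% were called where 60.7% of all genes were. Camk1 (-2.14 ± 0.06), Mef2a (-1.45 ± 0.04) and Mef2c (-1.74 ± 0.08) were lower.

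Of 32 tested subunits of deacetylase complexes, 16 were higher and 10 lower with RANKL (median 0.10), 8 and 2 with acetate against RANKL (median 0.04), and 14 and 9 with acetate against day 0 (median 0.08). The shares called were 81.2%, 31.2% and 71.9%, beside 66.3%, 30.4% and 60.7% of all genes. The subunit genes of the NuRD complex went both ways with RANKL. Mta3 and Chd3 were lower, by log2 -1.29 ± 0.10 and -0.83 ± 0.07, and higher with acetate than with RANKL, by 0.66 ± 0.11 and 0.58 ± 0.07. Mbd2 was also lower with RANKL, at 142.1 and 144.4 CPM at day 0 and 92.5 and 79.8 with RANKL. Mta1, Mta2, Rbbp4, Rbbp7, Chd4, Gatad2a, Gatad2b and Mbd3 had higher CPM in the RANKL libraries than at day 0. Mta1 stood at 41.4 and 42.9 CPM at day 0 and 70.2 and 69.7 with RANKL. Sin3b, a scaffold of Hdac1 and Hdac2, was lower with acetate than with RANKL (-0.44 ± 0.07; edgeR adjusted p = 2.7e-06). With acetate against day 0, Mta1 was higher (0.68 ± 0.08) and Mbd2 was lower (-0.49 ± 0.06).

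Of 42 tested genes listed as acetyltransferase complex partners, 20 were higher and 7 lower with RANKL (median 0.15). With acetate 2 were higher and 11 lower against RANKL (median -0.12), and 16 higher and 8 lower against day 0 (median 0.01). In either direction 64.3%, 31% and 57.1% were called, close to the 66.3%, 30.4% and 60.7% of all genes. The list was less evenly split by direction. Over all genes 32.8% were higher and 33.5% lower with RANKL, and 16.7% and 13.7% with acetate against RANKL. With acetate against day 0 the shares of all genes were 30.3% and 30.4%. Jade2, a scaffold of the Kat7 complex, went from 103.6 ± 0.395 to 30.6 ± 0.511 CPM with RANKL (log2 -1.76 ± 0.08; edgeR adjusted p = 3.76e-20) and was at 42.4 ± 4.49 with acetate, above RANKL by 0.47 ± 0.09 and below day 0 by -1.29 ± 0.08. The ATPase genes Ruvbl2 and Ruvbl1 of the Kat5 complex rose with RANKL, by log2 1.18 ± 0.06 and 0.79 ± 0.07, and were above day 0 with acetate, by 1.10 ± 0.07 and 0.58 ± 0.07. Cited2, which binds p300 and CBP, was lower with acetate than with RANKL (-0.32 ± 0.06; edgeR adjusted p = 0.000237), as was Zzz3 of the ATAC complex (-0.34 ± 0.07; edgeR adjusted p = 0.000244).

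Of 26 tested genes listed as other acetyl-lysine readers, 8 were higher and 9 lower with RANKL (median -0.03). With acetate 3 were higher and 5 lower against RANKL (median -0.03), and 6 and 9 against day 0 (median -0.02). Whether each listed protein binds acetyl-lysine was not tested. The shares called, 65.4%, 30.8% and 57.7%, are close to the 66.3%, 30.4% and 60.7% of all genes. The nuclear body genes Sp100 and Sp110 were lower with RANKL, by log2 -1.39 ± 0.06 and -1.57 ± 0.09. With acetate against RANKL the higher genes were Sp100 (0.96 ± 0.06), Sp110 (1.02 ± 0.09) and Sp140 (1.01 ± 0.12; edgeR adjusted p = 1.36e-08). Trim28, the KAP1 corepressor, rose with RANKL by 0.77 ± 0.04 and was 0.50 ± 0.04 above day 0 with acetate. Baz1a, a chromatin remodeller subunit, was also above day 0 with acetate (0.59 ± 0.05), and Sp100 below it (-0.43 ± 0.05).

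**Figure D4:**
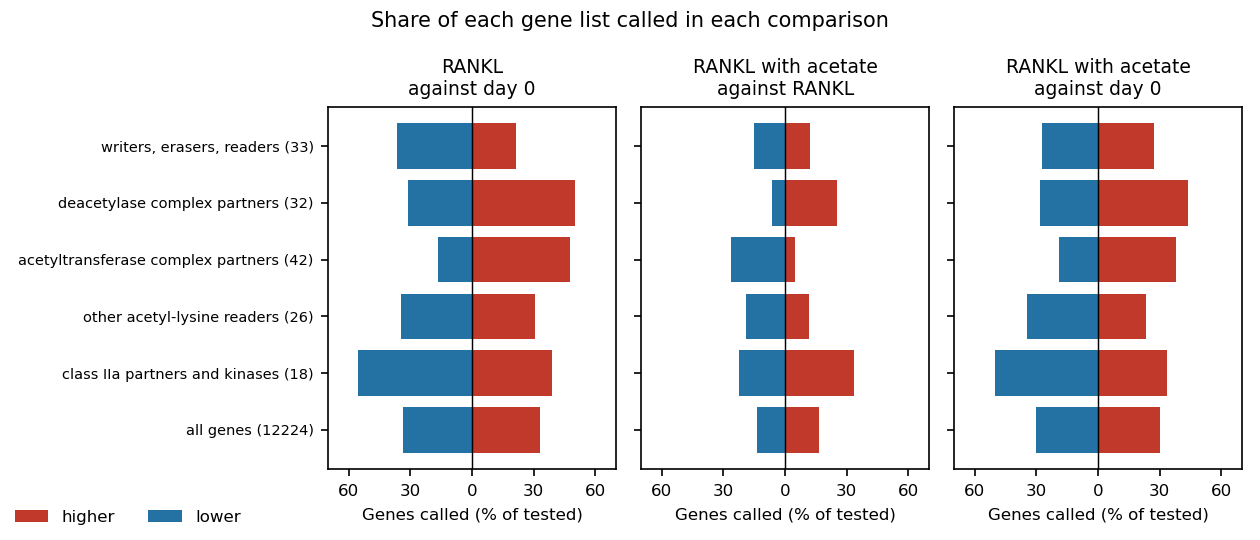
Share of tested genes called higher (red, to the right) or lower (blue, to the left) in each of 5 gene lists and over all genes, with the number tested in brackets. With acetate against RANKL, 2 acetyltransferase complex partners were higher and 11 lower, where 16.7% of all genes were higher and 13.7% lower.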

How the data were processed

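Sample titles gave the groups, and replicate 1 is the library whose title carries a final 1, replicate 2 the other. The submitters' processing notes name Trimmomatic 0.39, STAR, RSEM 1.3.1, DESeq2 1.26.0 and the build GRCm38. No source used here gives the STAR version, annotation release or strand setting. Expected counts, which the authors deposited for genes and transcripts, are RSEM's estimates without normalization. The deposited TPM and FPKM are scaled by the authors for length and library total. Of the gene-level expected counts, 97.1% lay within 0.005 of a whole number.

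Expected counts were rounded and fitted in R 4.3.3 with edgeR 4.0.16: filterByExpr (minimum count 10, minimum total 15), TMM factors (0.952 to 1.037) and 1 quasi-likelihood model with a mean per group over all 6 libraries. Degrees of freedom were 3 residual and 29.55 prior, with a biological coefficient of variation of 3.58%. SE is the log2 fold change over the root of F. The chi-square of counts per gene was 1.94 to 2.61 within groups and 27.15 to 165.7 between them, and each library was counted as 1 sample. These values cannot tell separate cultures from repeat preparations of 1 culture. With 2 libraries against 2, a two-sided permutation cannot go below p = 0.333. The fit was also run on simulated counts, with 200 of 11992 genes changed in 1 group and the same spread for every gene. With RANKL against day 0, 66.3% of genes were called here, so that run does not give an error rate for these data. Levels of different genes were compared by TPM.

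The members and gene lists were chosen with earlier results of these data known. Values in every library were given for members called with a log2 fold change of at least 0.58 in size, plus Hdac1, Hdac2, Hdac3, Ep300, Crebbp, Hat1 and Brd2, and from each partner list up to 3 called genes with the smallest adjusted p; some list genes are not reported here. Alternatives were DESeq2 1.42.0, limma-voom and limma 3.58.1 on TPM and FPKM, RLE and upper-quartile factors, other low-count filters, only the groups compared, a replicate block, each library left out, and stricter thresholds. Coordinates and transcript names came from GENCODE M21 and promoters from RefSeq. Sequences of 1 transcript start per printed gene were used. Counting precision is limited by the totals, and no molecular identifiers are named.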

Additional observations from a re-analysis of the deposited data

How the results depend on the processing

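Of the calls, 11 of 19 with RANKL against day 0, 3 of 9 with acetate against RANKL and 11 of 18 with acetate against day 0 were kept in all 17 settings other than the stricter thresholds. The members lower with RANKL, 12 in the report, numbered 7 on log2(TPM + 0.1), 7 on log2(TPM + 1), 6 on log2(FPKM + 0.1) and 6 at a log2 fold change of at least 0.58, and the 7 higher numbered 2 at that size. Members lower with acetate against RANKL, 5 in the report, numbered 1 with DESeq2, where 20.5% of all genes were called in place of 30.4%, and 1 on each of log2(TPM + 0.1), log2(TPM + 1) and log2(FPKM + 0.1). They numbered 2 at an adjusted p under 0.01, 0 at a log2 fold change of at least 0.58, and 2 to 4 with 1 library left out (2 without either RANKL library, 3 without either acetate library), counts that take in genes outside the 5: Hdac2 without RANKL replicate 2, Ncoa2 without acetate replicate 1 and Hdac10 without acetate replicate 2. At 0.58 the members higher numbered 2 with acetate against RANKL in place of 4, and 2 with acetate against day 0 in place of 9. The cause of these differences was not tested.

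The sign turned for Hdac4 with RANKL against day 0, at 0.12 on log2(TPM + 0.1), 0.11 on log2(TPM + 1) and 0.23 on log2(FPKM + 0.1), for Hdac4 with acetate against day 0, at 0.05 on log2(FPKM + 0.1), and for Sirt7 with RANKL, at 0.02 on log2(FPKM + 0.1). FPKM shifted the median of all genes by 0.12 with RANKL, so the last value lies below that median. The cause was not tested. Of 987 values not called in either setting, 56 changed sign, the largest being 0.33 in size. Hdac11 has no adjusted p from DESeq2 for acetate against RANKL and was not tested with only day 0 and acetate fitted, and Hdac11 and Sirt5 fell below the 5 CPM filter.

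With a replicate block the members higher and lower numbered 8 and 12 with RANKL, 4 and 4 with acetate against RANKL, and 9 and 9 with acetate against day 0. Crebbp lost its acetate call, at -0.22 on the log2 scale, and Sirt3 gained one with RANKL, at 0.58. Deviations of libraries with the same number correlated at -0.03, -0.06 and -0.01. With 2 libraries a group and deviations this small, these values cannot tell whether libraries with the same number share a culture or animal. Members with few counts, such as Hdac11 with 2 to 12 per library, cannot show small differences at this depth.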
